A study of Mus musculus with 11 samples.

Results

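The genes described here are 10 targets and effectors of the unfolded protein response of the endoplasmic reticulum (ER): Hspa5, Hsp90b1, Xbp1, Dnajb9, Herpud1, Edem1, Sdf2l1, Creld2, Pdia4 and Calr. They were chosen by name for their textbook role, with earlier results of these data known, and were looked up by symbol in a table of read counts for 55291 genes. The table held 10 of 10, and 10 of 10 passed the filter on low counts. The libraries came from E14 mouse embryonic stem cells, grown without feeder cells in serum with LIF, the GSK3 inhibitor CHIR99021 and a MEK inhibitor. Lines 10E and 11D, made by independent targeting, have SPT16 fused at its C terminus to V5, an epitope, and AID, an auxin-inducible degron. SPT16 is the large subunit of FACT, a histone chaperone that acts on nucleosomes during transcription and replication. Through the degron, auxin (indole-3-acetic acid, IAA) and the receptor TIR1, both from plants, send the tagged protein to the proteasome. Treatment was with 500 nM IAA or with its solvent ethanol (EtOH), for 24 hours: 4 tagged EtOH libraries (2 of 10E, 2 of 11D), 3 tagged IAA libraries (1 of 10E, 2 of 11D) and 3 IAA libraries of a line without the tag.

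The unfolded protein response adjusts the folding capacity of the ER to its load. Its sensors IRE1, ATF6 and PERK sit in the ER membrane. IRE1 splices Xbp1 mRNA so that it encodes an active transcription factor, ATF6 is cut by Golgi proteases to release another, and PERK slows translation and favours ATF4. XBP1 and ATF6 are known to bind ER stress elements in the promoters of ER chaperone, folding and degradation genes, so these genes usually rise together when folding fails.

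Total counts were between 3100127 and 13510163 per library, and mitochondrially encoded transcripts took 1.67% to 2.26% of them with EtOH, 2.45% to 3.16% with IAA in the tagged lines, without overlap, and 2.28% to 2.73% in the untagged line. Supt16 mRNA stood at 364 to 416 CPM with EtOH, 253 to 286 with IAA in the tagged lines and 538 to 577 in the untagged line, a level that does not check the labels, since the degron acts on the protein. CPM here are counts scaled to library size with edgeR's TMM factors. The 10 mouse embryonic stem cell markers listed for these cells were all detected, and 10 of 10 fell in IAA, also on library totals. Of all genes tested 28.1% were called lower with TMM factors and 15.9% on library totals. These markers had summed levels of 7633 to 9435 CPM under EtOH, 3022 to 3388 under IAA and 8042 to 8639 in the untagged line. The primitive and parietal endoderm list summed to 1806 to 2046, 1092 to 1192 and 1727 to 1851 CPM in the same order. Most of that sum was Lamc1 (mean 1239 CPM under EtOH, 668 under IAA) and Lama1 (444 and 164). Among its low genes Pdgfra (1.59 and 5.51) and Dab2 (0.61 and 4.67) stood higher in IAA, and Gata4 (3.43 and 3.24) and Col4a2 (4.76 and 3.62) did not. Of its 10 tested genes 3 rose and 2 fell, beside 29.3% and 28.1% of all genes tested. Trophectoderm markers summed to 23.7 to 40.9, 38.1 to 46.7 and 27.9 to 34.0 CPM, with 3 of 7 tested genes higher and 1 lower, beside the same shares. Fibroblast markers stayed between 1.85 and 5.48 CPM in sum, with 0 of 3 tested genes passing. The part of these shifts in the results below was not tested. In bulk RNA, fewer cells of a type and less RNA per cell cannot be told apart.

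Promoter sequences that carry elements known from this response are shown first, because genes that share an element ended on different sides of the comparison. The search covered 250 bases before to 50 bases after each RefSeq start, on both strands, and an entry was found for 10 of 10 genes (GRCm38.p6). The ER stress element was searched as CCAAT, any 9 bases and CCACG, the ER stress element II as ATTGG, any 1 base and CCACG, and the unfolded protein response element as TGACGTGG. In the 10 genes no match overlapped another. The ER stress element was present in the promoters of Hspa5, Calr, Hsp90b1 and Creld2, that is in 4 of 10 genes, beside 39 of 32851 promoters (0.119%). Element II was present in Herpud1, beside 12 promoters in all (0.0365%), and the unfolded protein response element in 0 of the 10, beside 222 promoters (0.676%). Each sequence is given 5′ to 3′ on the strand of its gene, with the match in capitals, which reads as the reverse complement where the element lies on the other strand.
Hspa5: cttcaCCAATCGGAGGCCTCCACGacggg
Creld2: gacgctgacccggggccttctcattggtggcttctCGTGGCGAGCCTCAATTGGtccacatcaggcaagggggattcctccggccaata
Calr: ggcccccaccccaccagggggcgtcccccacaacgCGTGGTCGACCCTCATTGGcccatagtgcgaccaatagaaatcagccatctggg
Hsp90b1: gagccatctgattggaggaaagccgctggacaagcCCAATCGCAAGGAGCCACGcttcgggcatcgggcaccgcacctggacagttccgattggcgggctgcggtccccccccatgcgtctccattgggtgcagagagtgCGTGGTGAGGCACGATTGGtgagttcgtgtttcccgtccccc
Herpud1: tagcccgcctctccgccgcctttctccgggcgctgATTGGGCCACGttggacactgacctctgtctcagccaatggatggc
The stretches lie at chr2:34772020-34772048 (plus strand), chr15:88819485-88819573 (plus), chr8:84847040-84847128 (minus), chr10:86705510-86705691 (minus) and chr8:94386342-94386422 (plus). GENCODE M21 places that of Hspa5 in the first exon of 1 longer transcript, and the other 4 upstream of the annotated transcripts. The matches began 65 bases before the start in Hspa5, 126 in Creld2, 162 in Calr, 212 and 107 in Hsp90b1 and 52 in Herpud1. A match of letters is a description and not a measured site, and no match says only that these letters are not in the window.

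**Figure D1:**
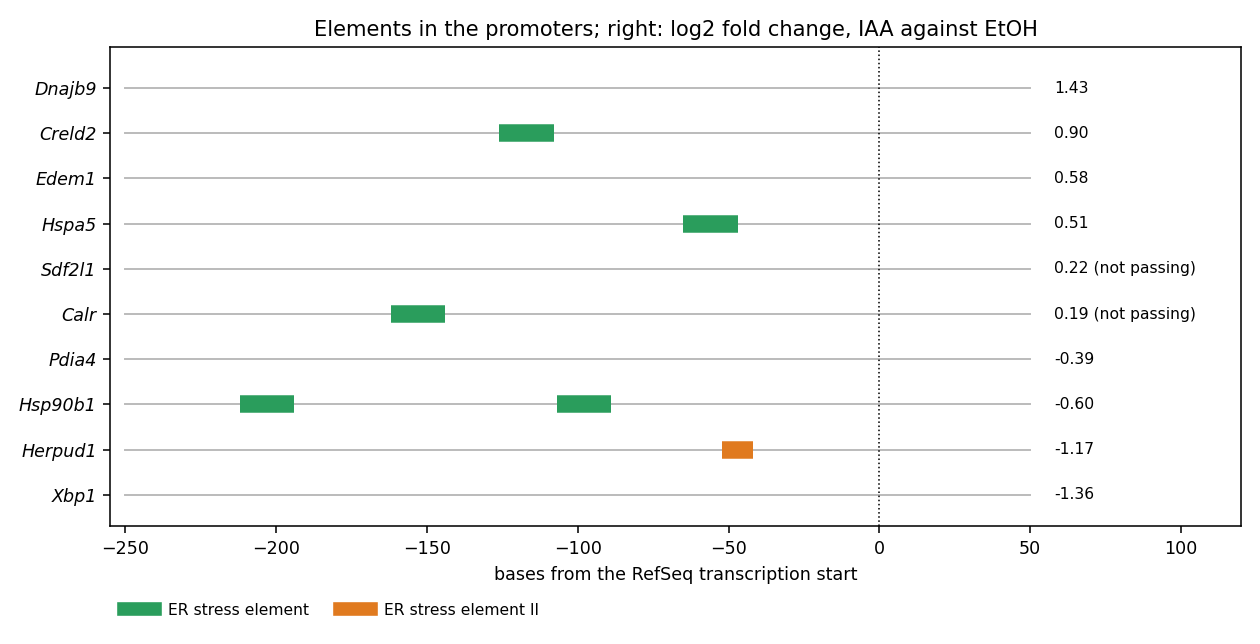
Position of the elements in the promoters of the 10 genes, in bases from the RefSeq transcription start, with genes ordered by their log2 fold change of IAA against EtOH, printed at the right. Genes with the ER stress element (green) lie at 0.90, 0.51, 0.19 (not passing) and -0.60, and Herpud1, with element II (orange), at -1.17.

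With IAA the 10 genes did not move as 1 group. In the tagged lines Dnajb9, Creld2, Edem1 and Hspa5 rose, Xbp1, Herpud1, Hsp90b1 and Pdia4 fell, and Sdf2l1 and Calr did not pass the test (edgeR quasi-likelihood test over 17904 genes, false discovery rate, FDR, under 0.05). Of all genes tested, 57.4% passed, 29.3% higher and 28.1% lower, so that 8 called of 10, 4 in each direction, stand beside a background in which most genes were called. The median log2 fold change was 0.21 over the 10 genes and 0.03 over all genes. The summed level of the 10 genes was 2039 to 2356 CPM with EtOH, 2172 to 2321 with IAA in the tagged lines and 2058 to 2215 in the untagged line, and these ranges overlapped. By level in single libraries, 5 genes lay higher in each IAA library than in any EtOH library of the tagged lines (the 4 called ones and Calr), 4 lay lower, and Sdf2l1 overlapped. Over all genes tested, 27.7% lay higher and 24.8% lower in this way.

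**Figure D2:**
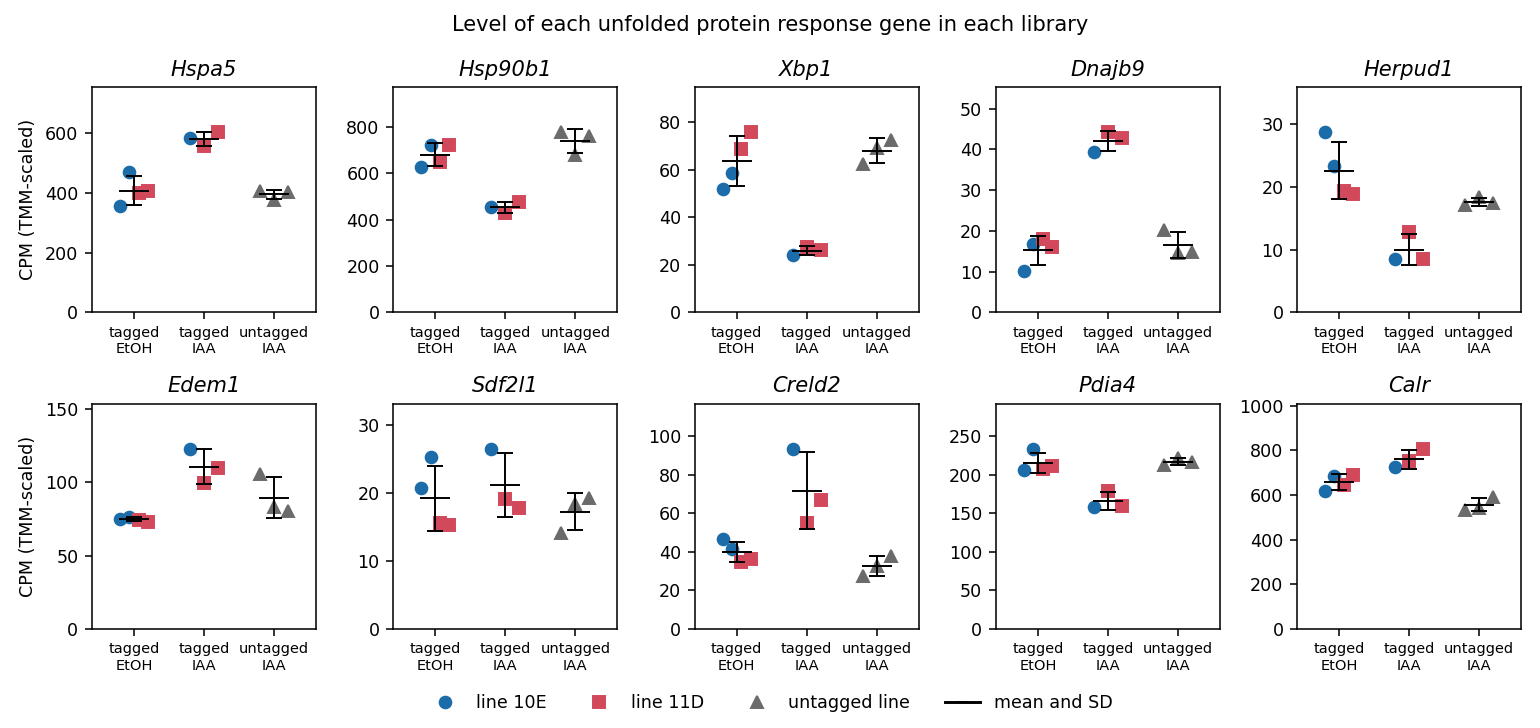
Level of each gene in CPM (vertical axes, starting at 0) in the 4 tagged EtOH, 3 tagged IAA and 3 untagged IAA libraries, with points by line and bars for mean and SD. Dnajb9 stands at 39.3 to 44.2 CPM in tagged IAA and at no more than 20.1 in the other libraries, while Xbp1 stands at 24.1 to 27.6 CPM against at least 52.0 elsewhere.

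Xbp1 encodes the transcription factor that IRE1 activates by splicing its mRNA (chromosome 11, 5520659 to 5525893, plus strand, 4 exon blocks, GRCm38 as for all genes here). Its level was 52.0 and 58.7 CPM in 10E EtOH, 68.8 and 75.6 in 11D EtOH, 24.1 in 10E IAA, 27.6 and 26.2 in 11D IAA, with 62.3, 68.9 and 72.5 in the untagged line. The 3 tagged IAA libraries were low and the other 7 were high, with no overlap. Xbp1 fell by 1.36 on the log2 scale (SE 0.12, FDR 1.08e-07). A count per gene does not separate the spliced from the unspliced mRNA, so the activity of IRE1 cannot be read from it.

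Hspa5 encodes BiP, the HSP70 chaperone of the ER lumen and a binding partner of the sensors (chromosome 2, 34771970 to 34777547, plus strand). It stood at 355 and 471 CPM in 10E EtOH, 401 and 406 in 11D EtOH, 583 in 10E IAA, 557 and 604 in 11D IAA, with 405, 378 and 405 in the untagged line. The tagged IAA libraries were the 3 highest, without overlap. The log2 fold change was 0.51 ± 0.10 (SE), with an FDR of 0.000429.

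Hsp90b1 encodes GRP94, the HSP90 chaperone of the same compartment (chromosome 10, 86690209 to 86705509, minus strand). Its level was 628 and 724 CPM in 10E EtOH, 650 and 723 in 11D EtOH, 454 in 10E IAA, 428 and 478 in 11D IAA, with 778, 680 and 762 in the untagged line. The tagged IAA libraries were the 3 lowest, again without overlap, the opposite side from Hspa5. Hsp90b1 fell by 0.60 on the log2 scale (SE 0.10, FDR 6.44e-05). Of its 4032 exon bases, 415 overlap exons of 1810014B01Rik on the other strand, 84 those of Gm15344 and 133 those of Gm25745, and as the strand setting of the counting is not given in the sources used here, some reads may belong to those genes.

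Calr encodes calreticulin, the lectin chaperone that holds newly made glycoproteins (chromosome 8, 84841850 to 84846934, minus strand). It was measured at 616 and 686 CPM in 10E EtOH, 645 and 688 in 11D EtOH, 724 in 10E IAA, 750 and 807 in 11D IAA, with 535, 543 and 590 in the untagged line. Tagged IAA libraries were high, tagged EtOH libraries lay between, and untagged libraries were low, and none of these ranges overlapped. The log2 fold change of IAA against EtOH was 0.19 ± 0.09, with an FDR of 0.0872. The call depended on the method: it passed with DESeq2 (0.23, FDR 0.0189), and in the authors' deposited table (log2 fold change 0.26, adjusted p 0.0114).

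Dnajb9 encodes ERdj4, a J-domain partner of BiP that hands misfolded proteins on and acts on IRE1 (chromosome 12, 44205559 to 44210326, minus strand). Its level was 10.1 and 16.7 CPM in 10E EtOH, 18.1 and 15.95 in 11D EtOH, 39.3 in 10E IAA, 44.2 and 42.7 in 11D IAA, with 20.1, 14.5 and 14.7 in the untagged line. The 3 tagged IAA libraries were high and the other 7 low. With a log2 fold change of 1.43 ± 0.16 (FDR 1.45e-06), Dnajb9 had the largest rise of the 10 genes, from counts of 58 to 178 per EtOH library. Sdf2l1 encodes a small ER protein that works with BiP and its J-domain partners (chromosome 16, 17130138 to 17132383, minus strand). It stood at 20.8 and 25.3 CPM in 10E EtOH, 15.6 and 15.2 in 11D EtOH, 26.5 in 10E IAA, 19.1 and 17.8 in 11D IAA, with 14.1, 18.4 and 19.3 in the untagged line. Here the lines rather than the treatments lay apart, the 10E libraries being the 3 highest. The log2 fold change of IAA against EtOH was 0.22 ± 0.14, with an FDR of 0.191.

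Creld2 encodes an ER protein with disulfide isomerase activity (chromosome 15, 88819646 to 88826683, plus strand). Its level was 46.8 and 41.4 CPM in 10E EtOH, 34.9 and 36.5 in 11D EtOH, 93.4 in 10E IAA, 54.7 and 67.1 in 11D IAA, with 27.3, 32.7 and 37.6 in the untagged line. Tagged IAA libraries were high without overlap, and the 10E IAA library stood above both 11D IAA libraries. The log2 fold change was 0.90 ± 0.12, with an FDR of 7.05e-06. Pdia4 encodes ERp72, a protein disulfide isomerase (chromosome 6, 47796141 to 47813430, minus strand). It was at 206 and 234 CPM in 10E EtOH, 208 and 212 in 11D EtOH, 158 in 10E IAA, 179 and 160 in 11D IAA, with 212, 221 and 216 in the untagged line. The tagged IAA libraries were the 3 lowest, and Pdia4 fell by 0.39 on the log2 scale (SE 0.09, FDR 0.00195).

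Herpud1 encodes a ubiquitin-like protein of the ER membrane that serves the degradation complex around HRD1 (chromosome 8, 94386438 to 94395377, plus strand). It stood at 28.7 and 23.3 CPM in 10E EtOH, 19.3 and 18.9 in 11D EtOH, 8.55 in 10E IAA, 12.8 and 8.54 in 11D IAA, with 17.1, 18.4 and 17.4 in the untagged line. The tagged IAA libraries were low without overlap, on counts of 39, 45 and 132. Herpud1 fell by 1.17 on the log2 scale (SE 0.20, FDR 0.000113). Edem1, which encodes a protein that draws misfolded glycoproteins into the same degradation route (chromosome 6, 108828641 to 108859356, plus strand), went the other way. Its level was 75.0 and 76.4 CPM in 10E EtOH, 74.4 and 73.1 in 11D EtOH, 123 in 10E IAA, 99.5 and 109.9 in 11D IAA, with 106, 83.1 and 80.3 in the untagged line. All 4 EtOH libraries lay within 4 CPM of each other and below the tagged IAA libraries, while the untagged libraries reached into the range of the latter. The log2 fold change of IAA against EtOH was 0.58 ± 0.09, with an FDR of 6.05e-05.

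The calls depend in part on scaling, while the 10 genes kept their directions. When libraries were scaled by their totals alone, the median log2 fold change of all genes tested moved from 0.03 to 0.36, and the split of calls from 5247 higher and 5034 lower to 7713 higher and 2851 lower (43.1% and 15.9%). On that scale 6 of the 10 genes were called higher and 3 lower: Xbp1 was at -1.02, Herpud1 at -0.84 and Hsp90b1 at -0.26 (FDR 0.0181), Pdia4 at -0.05 did not pass (FDR 0.611), and Sdf2l1 at 0.56 and Calr at 0.52 did. Pdia4 and Hsp90b1 still lay below, and Sdf2l1 and Calr above, the shifted median. Ratios of 2 genes within 1 library do not depend on scaling. The pairs shown were chosen after their values were seen, and their ratios are a description. The ratio of Hspa5 to Hsp90b1 counts was 0.562 to 0.651 with EtOH, 1.26 to 1.30 with IAA in the tagged lines and 0.521 to 0.556 in the untagged line. For Dnajb9 to Xbp1 it was 0.194 to 0.285, 1.60 to 1.63 and 0.203 to 0.323, and for Creld2 to Herpud1 it was 1.63 to 1.93, 4.27 to 10.9 and 1.59 to 2.16. Hspa5 thus had fewer reads than Hsp90b1 in the EtOH and untagged libraries and more in the tagged IAA libraries, an order that their levels per kilobase of exon share.

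**Figure D3:**
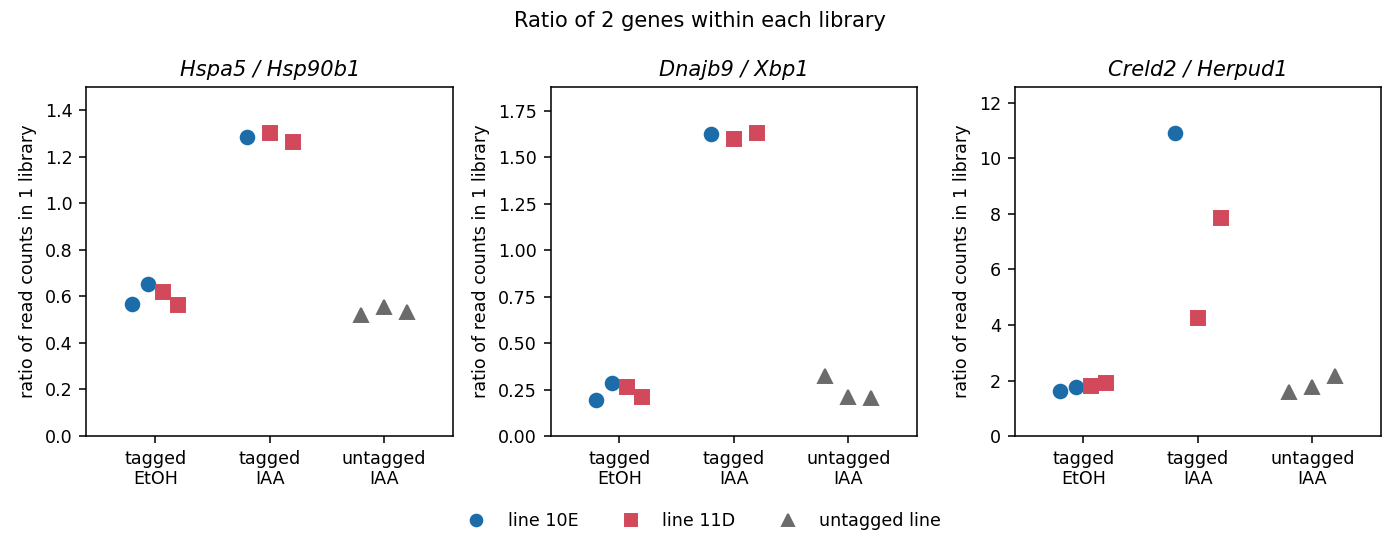
Ratio of the read counts of 2 genes within each library (vertical axes, starting at 0), by group, with 1 point per library. Tagged IAA libraries lie apart from both other groups in each panel, at 1.26 to 1.30 for Hspa5 to Hsp90b1 and at 1.60 to 1.63 for Dnajb9 to Xbp1.

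Per kilobase of exon (union of annotated exons), the order of levels in tagged EtOH was Calr, Hsp90b1, Hspa5, Pdia4, Creld2, Xbp1, Sdf2l1, Edem1, Herpud1 and Dnajb9, from 229 ± 12.1 (SD, n = 4) down to 5.96 ± 1.38 CPM per kilobase. Hspa5 (96.6 ± 11.3) and Pdia4 (89.6 ± 5.29) did not differ beyond their spread, nor did Xbp1 (19.6 ± 3.23) and Sdf2l1 (17.4 ± 4.32), nor Edem1 (11.6 ± 0.210) and Herpud1 (9.67 ± 1.95). In tagged IAA Hspa5 (137 ± 5.50, n = 3) stood before Hsp90b1 (112 ± 6.28), and their ranges did not overlap. Dnajb9, in the tenth place with EtOH, stood at 16.5 ± 0.992, within the spread of Edem1 (17.2 ± 1.83) and Sdf2l1 (19.1 ± 4.24). Xbp1 (8.00 ± 0.545) and Herpud1 (4.27 ± 1.06) took the last places. Untagged IAA libraries had, by mean, the order of the tagged EtOH libraries. Ranges overlapped there for Calr and Hsp90b1, Hspa5 and Pdia4, Creld2 and Xbp1, Sdf2l1 and Edem1, and Herpud1 and Dnajb9.

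Both tagged lines gave the same 8 calls in the same directions with edgeR on TMM. DESeq2 gave these 8 in 10E, beside 22.6% of all genes, and 7 in 11D, beside 32.4%, without Pdia4 (-0.28, FDR 0.107). On library totals the genes called lower were 2 in 10E (Xbp1 and Herpud1) and 1 in 11D (Xbp1), beside 8.17% and 13.4% of all genes. Calls as higher were added there for Calr in 10E (0.52) and 11D (0.53) and for Sdf2l1 in 11D (0.56). Of all 17904 genes, 5162 in 10E and 6105 in 11D were called higher on that scale. In 10E, where 35.4% of genes tested were called (17.1% higher, 18.3% lower) and 1 IAA library is assumed to vary like the other groups, the log2 fold change was 1.52 ± 0.25 for Dnajb9, 1.07 ± 0.17 for Creld2, 0.69 ± 0.14 for Edem1 and 0.48 ± 0.16 for Hspa5. Those of the genes that fell were -1.61 ± 0.31 for Herpud1, -1.21 ± 0.19 for Xbp1, -0.59 ± 0.15 for Hsp90b1 and -0.49 ± 0.14 for Pdia4. In 11D, where 46.2% were called (23.1% in each direction), the same genes were at 1.37 ± 0.21, 0.78 ± 0.15, 0.51 ± 0.12 and 0.52 ± 0.13, and at -0.92 ± 0.23, -1.44 ± 0.14, -0.60 ± 0.12 and -0.32 ± 0.11. The difference of effects between lines passed for 0 of 10 genes (edgeR, 0 at an unadjusted p under 0.05, 0 with DESeq2), and for 0 of 17904 genes in all (872, or 4.87%, at an unadjusted p under 0.05, 1 with DESeq2). It was widest for Herpud1, at 0.69 ± 0.39 (FDR 0.938). Between the EtOH libraries of the lines 0 of 10 genes passed with edgeR or DESeq2, beside 3.23% of all genes with edgeR (1.95% higher, 1.28% lower) and 2.27% with DESeq2. At an unadjusted p under 0.05 there were 2 of the 10, beside 18.2% of all genes, a share near the background. These 2 were at -0.60 ± 0.18 for Sdf2l1 (FDR 0.103) and 0.38 ± 0.13 for Xbp1 (FDR 0.157), as 11D minus 10E.

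Some calls within a line rest on 1 library. In 10E the call of Hspa5 was lost without EtOH replicate 1 (0.27, FDR 0.120) and that of Pdia4 without EtOH replicate 2 (-0.38, FDR 0.0897). In 11D the call of Pdia4 was lost without any 1 of its 4 libraries (-0.40 to -0.21), and those of Hspa5 (0.49, FDR 0.0577) and Herpud1 (-0.55, FDR 0.166) without IAA replicate 2. In both lines together the 8 calls were kept without any 1 of the 7 libraries.

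**Figure D4:**
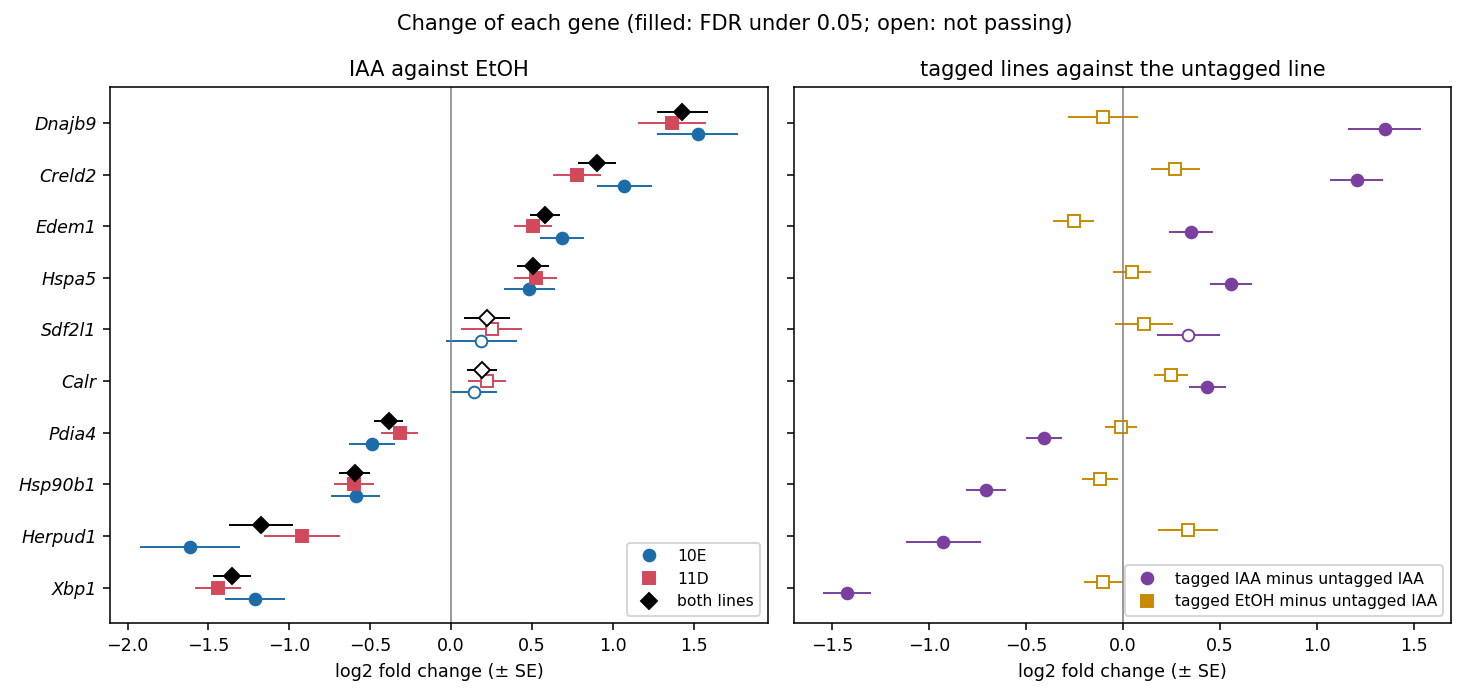
Log2 fold change with SE (horizontal axes) for each gene, at the left IAA against EtOH in 10E, 11D and both lines, at the right the tagged lines against the untagged line, filled where the FDR is under 0.05. Values of both lines lie on the same side of 0 for each gene, and no tagged EtOH value is filled.

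The untagged line allows a comparison at the same exposure to IAA. It shares the tagged IAA libraries with the one above, so the values are given side by side and not as a second test. Against untagged IAA (17439 genes tested, 55.7% called, 27.9% higher and 27.8% lower), tagged IAA was higher for Dnajb9 (1.35 ± 0.19), Creld2 (1.20 ± 0.14), Hspa5 (0.55 ± 0.11), Calr (0.43 ± 0.10, FDR 0.00125) and Edem1 (0.35 ± 0.11, FDR 0.0164). It was lower for Xbp1 (-1.42 ± 0.12), Herpud1 (-0.93 ± 0.19), Hsp90b1 (-0.71 ± 0.10) and Pdia4 (-0.41 ± 0.09, not passing on library totals, at -0.11). Sdf2l1 did not pass (0.34 ± 0.16, FDR 0.0927), though it passed as higher on library totals (0.63). The libraries did not overlap for 8 of 10 genes, 4 higher and 4 lower, beside 31.6% and 29.9% of all genes, and they overlapped for Edem1 and Sdf2l1. The call of Edem1 was lost without the 10E IAA library (0.26), 11D IAA replicate 2 (0.32), untagged replicate 2 (0.30) or untagged replicate 3 (0.28), and with a replicate block (0.26, FDR 0.127).

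Tagged EtOH against untagged IAA, where line, tag and hormone differ together and cannot be told apart, passed for 0 of 10 genes with edgeR, beside 3.57% of all genes (1.27% higher, 2.29% lower), and for 1 with DESeq2, beside 5.12%. The latter was Calr (0.24 with DESeq2, FDR 0.0436, and 0.25 ± 0.09 with edgeR, FDR 0.119). At an unadjusted p under 0.05 with edgeR there were 4 of the 10, beside 22.3% of all genes. They were Calr, Herpud1 at 0.33 ± 0.16, Creld2 at 0.27 ± 0.13 and Edem1 at -0.26 ± 0.10. Herpud1 and Calr lay higher and Edem1 lower in each tagged EtOH library than in any untagged library, beside 6.73% and 8.07% of all genes.

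Other genes of the pathway, 96 in 7 lists, gave calls in both directions: 22 rose (22.9%), 40 fell (41.7%) and 34 did not pass, beside 29.3% and 28.1% of all genes, with a median log2 fold change of -0.09 beside 0.03. On library totals alone the same genes gave 47 higher and 14 lower (49.0% and 14.6%), near the 43.1% and 15.9% of all genes. The counts per list depend on scaling and are given for both scales, TMM first, to be read against these shares of all genes.

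The sensors and the proteases that activate ATF6 gave 1 higher and 3 lower of 6 (3 and 1 on totals). Ern1, which encodes IRE1, rose from 30.1 ± 4.62 CPM (SD, n = 4) in tagged EtOH to 57.3 ± 3.25 (n = 3) in tagged IAA, with 31.5 ± 1.85 in untagged IAA (log2 fold change 0.96 ± 0.12, FDR 4.72e-06). Ern1 and its substrate Xbp1 thus moved to opposite sides. Atf6 went from 75.8 ± 9.53 to 52.6 ± 2.44 CPM (-0.50 ± 0.11), and Atf6b from 72.8 ± 18.2 to 52.1 ± 8.49 (-0.39 ± 0.13), but neither passed on library totals (-0.17 and -0.05). In untagged IAA Atf6 stood at 76.8 ± 4.25 CPM, near its tagged EtOH level. Atf6b stood there at 54.7 ± 7.87 CPM, near its tagged IAA level. Mbtps2, the site-2 protease, was at 61.7 ± 12.0 and 38.4 ± 7.17 CPM (-0.78 ± 0.12), though 2867 of its 10105 exon bases are shared with Yy2. Eif2ak3, which encodes PERK (0.22 ± 0.16, FDR 0.234), and Mbtps1, the site-1 protease (-0.11 ± 0.09, FDR 0.278), did not pass, and both passed as higher on library totals (0.56 and 0.22).

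In the PERK and ATF4 arm 2 of 10 genes rose and 6 fell (4 and 4 on totals), with a median of -0.58. Under EtOH 3 of these 10 genes were called lower in 11D than in 10E and 0 higher, beside 1.28% and 1.95% of all genes. Atf4, the transcription factor of this arm, fell from 281 ± 51.2 to 96.9 ± 8.01 CPM (-1.48 ± 0.11, FDR 1.82e-08) and stood at 252 ± 18.1 in untagged IAA. Asns, the ATF4 target that makes asparagine, fell from 773 ± 50.4 to 280 ± 12.7 CPM (-1.45 ± 0.09), and Chac1, a glutathione-degrading ATF4 target, from 24.2 ± 13.5 to 1.61 ± 1.08 CPM (-3.79 ± 0.29). These 3 were called as lower on both scales.

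ER chaperones and folding enzymes gave 5 higher and 9 lower of 22 (11 and 1 on totals). P4hb, the protein disulfide isomerase of the family's name, rose from 413 ± 57.6 to 784 ± 11.3 CPM (0.94 ± 0.10, FDR 1.31e-06), while Pdia6, of the same family, was at 245 ± 27.6 and 172 ± 8.27 CPM (-0.50 ± 0.10, and -0.17 without a call on totals). Creld1, the relative of Creld2, fell from 25.4 ± 4.37 to 8.93 ± 2.19 CPM (-1.51 ± 0.19), on the other side from Creld2. Genes of ER-associated degradation gave 7 higher and 3 lower of 18 (12 and 0 on totals). Ubxn4, a recruiter of the ATPase p97, rose from 66.3 ± 7.32 to 110 ± 13.5 CPM (0.70 ± 0.11) and Sel1l, the partner of HRD1, from 70.4 ± 3.76 to 90.0 ± 1.47 (0.35 ± 0.09). Sel1l stood at 86.7 ± 5.09 CPM in untagged IAA, near its tagged IAA level.

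**Figure D5:**
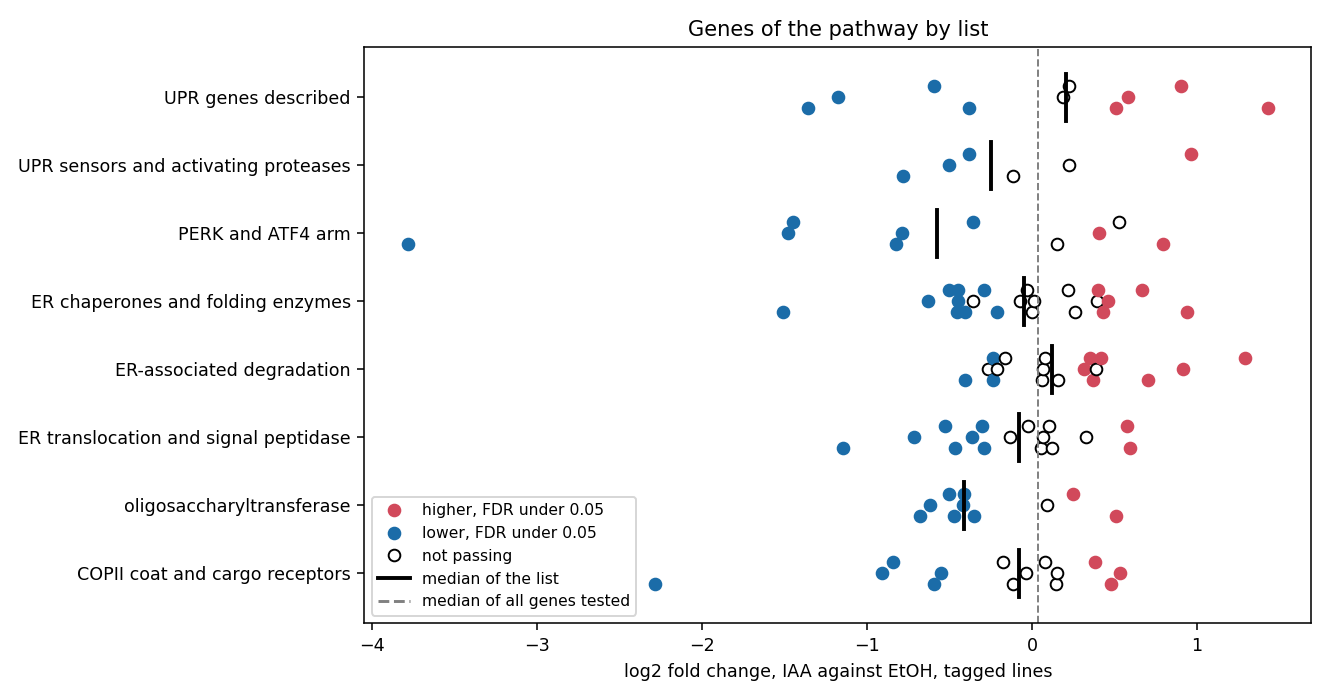
Log2 fold change of IAA against EtOH in the tagged lines for the 10 genes described and for the genes of 7 pathway lists, 1 point per gene, red where called higher, blue where called lower and white where not passing. Black bars are list medians, from -0.58 (PERK and ATF4 arm) to 0.21 (the 10 genes), and the dashed line is the median of all genes tested, 0.03.

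Translocation and signal peptidase genes gave 2 higher and 7 lower of 16 (7 and 2 on totals). Ssr2, a subunit of the translocon-associated complex, fell from 334 ± 14.1 to 153 ± 7.17 CPM (-1.15 ± 0.09), Spcs3, of the signal peptidase, from 101 ± 18.5 to 64.8 ± 12.2 (-0.72 ± 0.12), and Sec62, of the translocon, rose from 64.4 ± 9.22 to 101 ± 19.1 (0.58 ± 0.10). In untagged IAA Ssr2 stood at 252 ± 17.7 CPM, between its tagged EtOH and tagged IAA levels. Spcs3 stood there at 118 ± 14.7 and Sec62 at 76.7 ± 6.54 CPM. Opposite-strand exons cover 509 of the 4343 exon bases of Sec62, 239 of 1864 of Ssr2 and 75 of 3466 of Spcs3. The oligosaccharyltransferase, which attaches glycans to proteins entering the ER, gave 2 higher and 7 lower of 10 (3 and 2 on totals). Its catalytic subunits Stt3b (-0.68 ± 0.09) and Stt3a (-0.50 ± 0.09) and the oxidoreductase Magt1 (-0.62 ± 0.11) fell, and of these Stt3a did not pass on totals (-0.17). COPII coat and cargo receptor genes gave 3 higher and 5 lower of 14 (7 and 4 on totals). Kdelr3, a receptor that returns BiP and its like to the ER, fell from 14.6 ± 0.911 to 3.29 ± 0.897 CPM (-2.28 ± 0.22), and the cargo-binding coat subunits Sec24c and Sec24d by 0.84 (SE 0.09) and 0.91 (SE 0.12) on the log2 scale, on both scales with a call.

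Genes with an ER stress element in the promoter window did not share a direction either. Of 37 such genes 22 were tested, 5 rose and 8 fell, and the median was -0.17, beside 29.3% and 28.1% of all genes called. On library totals alone 8 rose and 3 fell, beside 43.1% and 15.9%. Among the 18 that are not in the group of 10, 3 rose and 7 fell. Of these 18, 8 with a known ER role were picked after their values were seen. Dnajc3, a BiP partner known as P58IPK (0.46), and Derl3, of the degradation channel family (0.92), rose on both scales, though their libraries overlapped between treatments. Dnajc3 spanned 41.7 to 75.5 CPM with EtOH and 64.9 to 97.2 with IAA in the tagged lines. Derl3, a low gene, spanned 1.43 to 3.26 and 2.57 to 6.80 CPM. Under EtOH Dnajc3 was also higher in 11D than in 10E (0.83 ± 0.12, edgeR FDR 0.00313). Canx, which encodes calnexin (-0.45), and Pdia6 (-0.50) fell on the TMM scale and did not pass on totals (-0.12 and -0.17). Syvn1, which encodes HRD1 (-0.17), Ero1lb, an oxidase of the disulfide pathway (0.39), Calr4, a relative of Calr (0.06), and Alg12, a mannosyltransferase of glycan assembly (-0.26), did not pass, and of these Ero1lb passed as higher on totals (0.72). Of 12 genes with element II 11 were tested, 3 rose and 5 fell (3 and 4 on totals), Herpud1 among the latter on both scales.

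Over the 10 libraries, log2 CPM was correlated with that of Hspa5 for 9682 genes with a mean of at least 10 CPM. Predicted genes, Riken clones, pseudogene entries and entries named by clone or sequence identifiers were then left out of the ranking. The closest of the remaining genes were Gtf3c6 (Pearson r 0.98), Tspyl1 (0.98), Rab24 (0.98), Pcgf5 (0.97), Rraga (0.97) and Mpc2 (0.96). The nearest of the 10 genes was Dnajb9 (0.94). Hsp90b1 followed Xbp1 (0.94) and Pdia4 (0.90), and was opposed to Hspa5 (-0.81). The 10 points share their groups, so these values restate the split between tagged IAA and the other libraries, and they carry no test.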

How the data were processed

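Read counts per gene symbol, without normalization, were deposited by the authors as 1 table. STAR, deepTools and mm10 are named in the submitters' processing notes, with versions, counter, annotation and strand setting not given in the sources used here. The authors' deposited table of IAA against EtOH has DESeq2 columns, per the file headers, and its log2 fold change and adjusted p-value were used for description. It gave the directions above for each of the 10 genes, and all but Sdf2l1 (adjusted p 0.255) were under 0.05, Calr included.

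The table holds 10 libraries, while the labels list 11 samples. Columns carry line codes. Columns coded TIR1 were assigned to the line without the tag, since this code alone has 3 IAA replicates and no EtOH. The codes 10E and 11D are not tied to clone numbers. Separate cultures are not stated for the replicates, so the p-values cover the spread among libraries, possibly technical. Between replicates of 1 line and treatment the chi-square per degree of freedom was 3.05 to 28.9, above sampling noise.

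The tests were edgeR's quasi-likelihood F tests (version 4.0.16, R 4.3.3) after TMM and filterByExpr, with Benjamini-Hochberg adjustment over all genes tested. For IAA against EtOH the fit held 7 tagged libraries and a line term. Effects per line and their difference used 1 coefficient per line and treatment, and comparisons with the untagged line used 10 libraries. Each SE was obtained from the F statistic as |log2 fold change|/√F. Log2 CPM used a prior count of 2. Alternatives were DESeq2 1.42.0, other scalings, no filter, a replicate block and leaving out libraries. Positions, exon lengths and overlaps came from GENCODE M21 and promoters from RefSeq (GRCm38.p6). Protein sequences were not analysed here.

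The 10 genes, the lists and the element searches were chosen with earlier results of these data known. Named beside the 10 genes were each sensor or protease of the first list and the 3 called genes of smallest FDR in each other list. The 6 genes most correlated with Hspa5, after predicted genes and similar entries were left out, were also named. For 3 list genes the match was made through older symbols. A gene of the list of ER-associated degradation that this rule names is not reported here.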

Additional observations from a re-analysis of the deposited data

How the results depend on the processing

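In IAA against EtOH the 8 calls kept their direction under each of 15 alternatives, and they kept their side of the threshold except for Pdia4 on library totals. Calr passed on library totals (0.52), with DESeq2 size factors or DESeq2 (0.23 each), with a replicate block (0.21) and without 10E EtOH replicate 2 (0.24), and its log2 fold change ranged from 0.15 to 0.52. Library totals alone gave 47 higher and 14 lower calls among the other pathway genes, and left 2 of the 10 genes called lower in 10E and 1 in 11D. On that scale 5 of the 10 genes were called higher in 10E and 6 in 11D. Without 1 library, 2 to 4 of the 10 genes were called lower in 11D, the lowest without IAA replicate 2. DESeq2 called 1 gene, Calr, higher in tagged EtOH against untagged IAA. Leaving out the 2 EtOH libraries richest in CT010467.1 (2.64% and 4.27% of counts) changed no call of the 10 genes. The cause of these changes was not tested.

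Deviations from group means of same-numbered libraries correlated at -0.17 (10E EtOH with 11D EtOH), -0.11 (10E EtOH with 11D IAA) and 0.18 (11D EtOH with 11D IAA). The 10E IAA and untagged libraries were not in this comparison, so whether replicate numbers pair the samples cannot be told from it. With the replicate block 5 of the 10 genes were called higher and 4 lower in IAA against EtOH. Of all 17904 genes tested there, 5047 were higher and 4872 lower. In tagged IAA against untagged IAA the block gave 4 and 4, beside 3872 and 4139 of 17439 genes. Edem1 did not pass there (0.26, FDR 0.127).

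Signs turned for differences that passed no test. The difference of effects between lines turned on library totals for Hspa5 (-0.036) and Sdf2l1 (-0.0089). Without 1 library it ranged from -0.18 to 0.23 for Hspa5, -0.12 to 0.088 for Hsp90b1, -0.59 to 0.15 for Dnajb9, -0.092 to 0.20 for Sdf2l1 and -0.0032 to 0.16 for Calr. The EtOH libraries of 11D against 10E ranged from -0.23 to 0.15 for Hspa5, -0.083 to 0.095 for Hsp90b1, -0.0010 to 0.70 for Dnajb9 and -0.048 to 0.079 for Calr. Tagged EtOH against untagged IAA ranged from -0.070 to 0.14 for Hspa5 (-0.061 without the 2 libraries rich in CT010467.1), -0.32 to 0.051 for Dnajb9, -0.062 to 0.035 for Pdia4 and -0.0029 to 0.20 for Sdf2l1.

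Depth limits the low genes most: Herpud1 rested on 39 to 236 counts per library and Sdf2l1 on 50 to 276. The 10E line has 1 IAA library.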
